A study of Mus musculus with 25 samples.

Results

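Paneth cells sit at the base of the crypts of the small intestine and release granules of antimicrobial proteins into the gut lumen. Mouse alpha-defensins, also called cryptdins, are made as inactive precursors and are cleaved to their active form by the protease Mmp7. Lysozyme, the ribonuclease angiogenin 4 and secreted phospholipase A2 are released from the same granules. The 7 genes described here were every row of the deposited count table of mouse duodenum whose symbol was Defa17, Defa21, Defa22, Lyz1, Mmp7, Ang4 or Pla2g2a, out of 17007 gene identifiers. All 7 were found, each under 1 identifier.

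The mice were male C57BL/6N, called wild type (WT), or carried an Aldh2 knock-in (KI), and were 8 weeks old when the diets began. Aldh2 is the mitochondrial enzyme that clears acetaldehyde, the first product of ethanol breakdown. The sources used here name neither the allele nor the strain background of the knock-in. KI_Half (6 libraries) were KI mice given ethanol as 2.5% of the diet and as a gavage of 2 g/kg on 2 occasions a week, and KI_Con (4) were KI mice on control diet. Among WT mice, WT_Con (4) had control diet, WT_Half (7) had the regimen of KI_Half, and WT_Full (4) had 5% ethanol in the diet and a gavage of 4 g/kg, again on 2 occasions a week. Every diet ran for 8 weeks. A final gavage, stated as 5 g/kg without saying for which groups, preceded tissue collection by 9 h. The labels do not say whether control mice were gavaged, so gavage and ethanol cannot be told apart. The final gavage and the 8 weeks of diet cannot be told apart either where an ethanol group is compared with its control group. No KI mice on the 5% diet were analysed here. The labels number the libraries of a group without saying that each is a separate animal, so a p-value measures the spread between these libraries.

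Libraries held 24.6 to 44.8 M (mega) counts. The duodenal regulators Pdx1 and Gata4 were counted in every library, at 88.4 to 229 and 194 to 329 counts per M counts of the library (CPM), and the ileal bile acid transporter Slc10a2 reached at most 2.68 CPM. The glands under the duodenal lining, Brunner glands, were sampled unevenly. The summed CPM of Muc6, Tff2 and Gkn3, all 3 genes of the Brunner gland list, ran from 34.4 to 7174 in KI_Half, 54.3 to 10913 in KI_Con, 35.1 to 53685 in WT_Con, 46.5 to 16945 in WT_Half and 15.3 to 7156 in WT_Full. The medians of this sum were 330.1, 643, 21929, 123 and 43.7 CPM in the same order of groups. By median WT_Con was the richest group, with 10608, 53685 and 33249.9 CPM in replicates 1, 3 and 4, but 35.1 CPM in replicate 2. Comparisons with WT_Con therefore also set tissue of unlike Brunner gland level side by side. WT_Con replicate 3 was highest of all, and the summed level of 5 stomach genes was also highest there, at 15508 CPM. WT_Full replicate 3 had the highest level of 6 of the 7 Paneth cell genes among all 25 libraries, and WT_Half replicate 2 the lowest level of 3 of them. Results below are given without these libraries where that changes them.

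Identity matters for the defensins, because they lie among near-identical copies. In the GRCm38 build, Defa17 (ENSMUSG00000060208) lies at chr8:21655780-21656735, Defa21 (ENSMUSG00000074447) at chr8:21025545-21026516 and Defa22 (ENSMUSG00000074443) at chr8:21162277-21163249, all on the plus strand. The coding sequences of Defa21 and Defa22 were identical at 277 of 279 bases (99.3%). Defa17 was identical to Defa21 at 82.3% and to Defa22 at 82.6% of aligned positions. The coding sequences without the stop codon, from the GENCODE M21 annotation of GRCm38, are shown to make plain what the read counter had to separate. Capitals in Defa21 and Defa22 mark the bases that differ between those genes, and capitals in Defa17 mark bases with no match in Defa21.
Defa21: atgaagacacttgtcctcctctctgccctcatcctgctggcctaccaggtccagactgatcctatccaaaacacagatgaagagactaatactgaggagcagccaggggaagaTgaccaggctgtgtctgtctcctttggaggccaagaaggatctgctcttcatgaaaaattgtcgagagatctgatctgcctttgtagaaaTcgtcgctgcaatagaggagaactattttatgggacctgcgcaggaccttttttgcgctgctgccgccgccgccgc
Defa22: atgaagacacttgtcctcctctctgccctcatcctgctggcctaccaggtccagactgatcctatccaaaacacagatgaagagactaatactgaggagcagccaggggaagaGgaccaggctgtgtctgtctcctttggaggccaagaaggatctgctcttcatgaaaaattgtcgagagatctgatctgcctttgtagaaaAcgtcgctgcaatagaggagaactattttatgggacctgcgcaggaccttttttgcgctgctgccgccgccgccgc
Defa17: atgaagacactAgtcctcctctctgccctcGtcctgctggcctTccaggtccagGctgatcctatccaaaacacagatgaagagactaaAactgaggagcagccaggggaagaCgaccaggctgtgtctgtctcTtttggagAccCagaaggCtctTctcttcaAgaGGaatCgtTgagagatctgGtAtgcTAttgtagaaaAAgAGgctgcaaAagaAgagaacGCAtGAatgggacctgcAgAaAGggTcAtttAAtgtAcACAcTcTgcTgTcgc
Of all 50-base stretches of the Defa21 transcript, 72.9% also occurred in another gene, mainly Defa22. The share was 74.9% for Defa22 and 92.0% for Defa17, whose closest partner was Defa3. No source used here says how the authors counted reads that match several genes, so the split of reads among these defensins is uncertain.

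The other 4 genes are better separated. Mmp7 (ENSMUSG00000018623, chr9:7692090-7699585, plus strand) and Pla2g2a (ENSMUSG00000058908, chr4:138831857-138835186, plus strand) shared no 50-base stretch with another gene. Ang4 (ENSMUSG00000060615, chr14:51763878-51773590, minus strand) shared 4.7% of its stretches with Ang5 or Ang2. Lyz1 (ENSMUSG00000069515, chr10:117287797-117292868, minus strand) shared 16.1% with Lyz2, the lysozyme of macrophages. Pla2g2a is known to carry a frameshift in C57BL/6 mice. It is annotated as a polymorphic pseudogene by GENCODE and as a transcribed pseudogene by RefSeq, so its counts are of a transcript and say nothing of a protein.

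Promoter windows of 280 bases, from 250 before to 30 bases into the transcript, were available from RefSeq (GRCm38.p6) for 5 of the 7 genes. They are shown because these genes varied together between libraries, as described further on. The windows of Defa21 (chr8:21025295-21025574, plus strand) and Defa22 (chr8:21162027-21162306, plus strand) were identical over all 280 bases, so 1 sequence stands for both. The others are Mmp7 (chr9:7691840-7692119, plus strand), Lyz1 (chr10:117292839-117293118, minus strand) and Ang4 (chr14:51773561-51773840, minus strand). Capitals mark ATCAAAG, the core motif of the TCF/LEF factors of Wnt signalling.
Defa21 and Defa22: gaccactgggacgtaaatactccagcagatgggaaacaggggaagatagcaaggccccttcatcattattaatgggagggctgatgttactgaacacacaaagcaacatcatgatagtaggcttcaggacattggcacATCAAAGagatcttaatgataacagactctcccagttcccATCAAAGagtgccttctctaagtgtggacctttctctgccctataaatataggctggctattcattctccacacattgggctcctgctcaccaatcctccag
Mmp7: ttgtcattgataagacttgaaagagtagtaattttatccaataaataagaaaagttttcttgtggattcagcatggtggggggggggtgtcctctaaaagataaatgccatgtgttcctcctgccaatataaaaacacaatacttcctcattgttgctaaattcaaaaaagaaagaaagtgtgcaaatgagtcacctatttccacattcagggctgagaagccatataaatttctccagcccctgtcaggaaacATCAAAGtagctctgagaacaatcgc
Lyz1: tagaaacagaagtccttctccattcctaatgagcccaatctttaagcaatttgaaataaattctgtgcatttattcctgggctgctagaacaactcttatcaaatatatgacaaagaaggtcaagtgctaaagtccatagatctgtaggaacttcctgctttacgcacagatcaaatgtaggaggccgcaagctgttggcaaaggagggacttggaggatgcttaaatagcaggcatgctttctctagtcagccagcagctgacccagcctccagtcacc
Ang4: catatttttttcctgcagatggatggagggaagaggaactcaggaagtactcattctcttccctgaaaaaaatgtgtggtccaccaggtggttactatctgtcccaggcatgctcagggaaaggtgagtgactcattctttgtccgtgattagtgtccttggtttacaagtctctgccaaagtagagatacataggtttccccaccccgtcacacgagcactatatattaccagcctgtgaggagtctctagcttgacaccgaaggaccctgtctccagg
Searched on both strands, ATCAAAG began 112 and 72 bases before the start (at -112 and -72) in Defa21 and Defa22, and at base 5 of the transcript in Mmp7. It did not occur in the windows of Lyz1 and Ang4. Of 32851 RefSeq windows of the same length, 3.56% held it at least once and 0.0944% at least 2 times. The TATA box letters TATAAA occurred at -31 in Defa21 and Defa22 and at -123 and -26 in Mmp7, against 13.1% of all windows, and overlapped no ATCAAAG.

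Levels between genes were compared per kb of exon. Over 25 libraries Lyz1 averaged 237 CPM per kb, Ang4 20.5, Mmp7 10.0, Defa17 7.90, Pla2g2a 3.81, Defa21 2.83 and Defa22 2.80. As deposited, the counts of the 3 defensins made up 0.793% to 4.91% (median 1.63%) of the counts of all 12 alpha-defensin rows in a library, with the highest share in WT_Full replicate 2. Because reads may have been split or lost among the copies, these are shares of counts and not of message. Read numbers were correspondingly small, at 21 to 368 counts for Defa17, 1 to 310 for Defa21 and 0 to 285 for Defa22. Lyz1 had 1922 to 36636 counts.

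**Figure D1:**
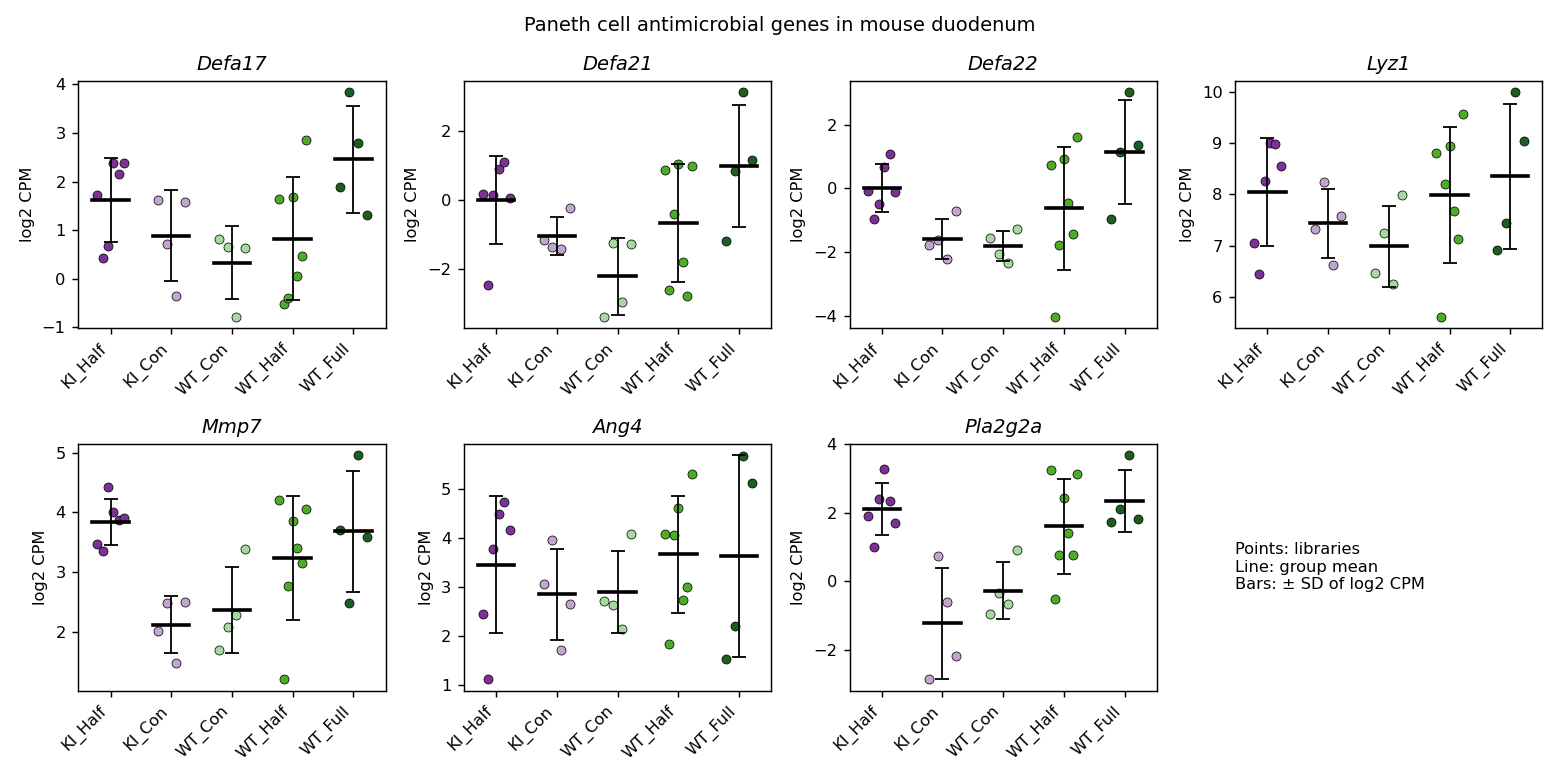
Level of each gene as log2 CPM (vertical axis) in each of 25 libraries (points) by group, with the group mean (line) and SD (bars). WT_Full replicate 3 is the top WT_Full point for every gene but Defa17, and the KI_Half and KI_Con points do not overlap for Mmp7 and Pla2g2a.

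Defa17, an alpha-defensin, had 1.28, 3.81 and 5.18 CPM as lowest, median and highest level in KI_Half, against 3.04, 1.58, 0.717 and 2.92 CPM in KI_Con. In WT mice it had 1.70, 1.51, 0.520 and 1.50 CPM in WT_Con, a lowest, median and highest of 0.634, 1.31 and 7.18 CPM in WT_Half, and 3.64, 14.2, 6.88 and 2.41 CPM in WT_Full. Each WT_Full library lay above each WT_Con library, and the KI groups overlapped.

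Defa21 had a lowest, median and highest of 0.122, 1.06 and 2.11 CPM in KI_Half, against 0.385, 0.328, 0.312 and 0.790 CPM in KI_Con. It had 0.0348, 0.362, 0.0678 and 0.353 CPM in WT_Con, 0.0855, 0.697 and 2.00 CPM as lowest, median and highest in WT_Half, and 0.380, 1.74, 8.67 and 2.18 CPM in WT_Full. WT_Full replicate 1 lay just above the highest WT_Con library, at 10 against 12 counts in libraries of different size.

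Defa22, its closest copy, had 0.457, 0.875 and 2.04 CPM as lowest, median and highest in KI_Half, against 0.231, 0.263, 0.156 and 0.553 CPM in KI_Con. The WT_Con libraries had 0.278, 0.181, 0.136 and 0.353 CPM, WT_Half a median of 0.672 and a highest of 2.98 CPM, and WT_Full 0.455, 2.16, 7.97 and 2.51 CPM. WT_Half replicate 2 had 0 counts, which allows up to 0.0761 CPM by a limit of 3 counts (counting error only). WT_Full replicate 3 stood above all other libraries for both Defa21 and Defa22.

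Mmp7, the matrix metalloproteinase that activates the defensin precursors in mouse Paneth cells, had 10.1, 14.8 and 21.4 CPM as lowest, median and highest in KI_Half, against 3.96, 5.52, 2.74 and 5.65 CPM in KI_Con. In WT_Con it had 3.20, 4.17, 4.84 and 10.3 CPM, in WT_Half 2.26, 10.6 and 18.3 CPM as lowest, median and highest, and in WT_Full 13.0, 5.56, 31.1 and 11.9 CPM. Every KI_Half library lay above every KI_Con library, while WT_Full and WT_Con overlapped.

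Lyz1, the Paneth cell lysozyme that cuts bacterial cell walls, had 87.4, 342 and 510.4 CPM as lowest, median and highest in KI_Half, against 161, 302, 97.8 and 190.3 CPM in KI_Con. It had 88.4, 152, 76.0 and 253 CPM in WT_Con, 48.8, 293 and 764 CPM as lowest, median and highest in WT_Half, and 121, 174, 1024 and 529.7 CPM in WT_Full. WT_Full split into a pair of libraries within the WT_Con range and a pair above it.

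Pla2g2a, the transcript of a secreted phospholipase A2, had 1.95, 4.36 and 9.63 CPM as lowest, median and highest in KI_Half, against 0.0769, 1.61, 0.592 and 0.158 CPM in KI_Con. It had 0.452, 0.725, 0.565 and 1.82 CPM in WT_Con, 0.634, 2.58 and 9.40 CPM as lowest, median and highest in WT_Half, and 3.23, 4.25, 12.7 and 3.48 CPM in WT_Full. It was the gene for which both KI_Half against KI_Con and WT_Full against WT_Con did not overlap.

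Ang4, a ribonuclease of Paneth cells that kills bacteria, had 2.10, 15.7 and 26.7 CPM as lowest, median and highest in KI_Half, against 8.27, 15.5, 3.18 and 6.24 CPM in KI_Con. It had 6.46, 6.16, 4.34 and 17.0 CPM in WT_Con, 3.53, 16.7 and 39.6 CPM as lowest, median and highest in WT_Half, and 2.81, 4.56, 50.7 and 34.7 CPM in WT_Full. WT_Full replicates 1 and 2 lay near or below the lowest WT_Con library, and replicates 3 and 4 above the highest.

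By group mean, all 7 genes were highest in WT_Full, next in the 2.5% groups KI_Half and WT_Half, and lowest in KI_Con and WT_Con. The place of WT_Full rests on its replicate 3 for Lyz1, Mmp7, Ang4 and Pla2g2a, whose log2 fold changes in WT_Full against WT_Half were below 0 without that library. By group median, KI_Half lay above WT_Full for Mmp7 (14.8 and 12.5 CPM) and Pla2g2a (4.36 and 3.86 CPM). Defa17 had a lower median in WT_Half (1.31 CPM) than in WT_Con (1.50 CPM) and KI_Con (2.25 CPM). Without WT_Half replicate 7, the log2 fold change of Defa17 in WT_Half against WT_Con was 0.34. By mean, KI_Half came before WT_Half for Defa17, Defa21, Mmp7 and Pla2g2a, and WT_Half before KI_Half for Defa22, Lyz1 and Ang4. KI_Con lay above WT_Con for the 3 defensins and Lyz1, and below it for Mmp7, Ang4 and Pla2g2a. In the tests below, no gene of the 7 passed between the neighbouring groups WT_Full and WT_Half, KI_Half and WT_Half, or KI_Con and WT_Con.

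WT_Full against WT_Con asked what the 5% regimen did in wild-type mice. The levels of all 7 genes were on average higher in WT_Full, and most so for the defensins and Pla2g2a. Defa21 averaged 3.24 ± 3.70 CPM in WT_Full and 0.204 ± 0.177 CPM in WT_Con, Defa22 3.27 ± 3.26 and 0.237 ± 0.0974 CPM, and Defa17 6.79 ± 5.30 and 1.31 ± 0.534 CPM (SD, n = 4 each). Pla2g2a averaged 5.92 ± 4.56 CPM in WT_Full and 0.891 ± 0.631 CPM in WT_Con. None of the 7 passed edgeR's quasi-likelihood test at a Benjamini-Hochberg adjusted p under 0.05, in a comparison where 0.00592% of all 16882 genes tested did (1 gene).

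The log2 fold changes of edgeR, with standard errors (SE), were 4.00 ± 1.02 for Defa21 (adjusted p = 0.159), 3.80 ± 0.81 for Defa22 (0.129), 2.38 ± 0.60 for Defa17 (0.159) and 2.75 ± 0.62 for Pla2g2a (0.141). Those of Lyz1, Mmp7 and Ang4 were smaller, at 1.71 ± 0.67, 1.47 ± 0.54 and 1.46 ± 0.86 (adjusted p = 0.244, 0.227 and 0.392). The median log2 fold change of the 7 genes was 2.38, beside -0.00 over all genes tested. All but Ang4, 6 of the 7, were higher at an unadjusted p under 0.05, against 9.94% of all genes. In Defa17, Defa21, Defa22 and Pla2g2a every WT_Full library lay above every WT_Con library, which held in that direction for 4.22% of all genes. More Paneth cells and more message in each of them cannot be told apart in bulk tissue.

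The call in this comparison depends on the test. DESeq2 called Defa17 (adjusted p = 0.00278), Defa21 (0.00128), Defa22 (9.98e-05) and Pla2g2a (0.000452) as higher in WT_Full, with 2.98% of all genes called higher. A single edgeR fit of all 25 libraries called 4 (4.02% of all genes called higher), namely Defa17 (0.0441), Defa21 (0.0231), Defa22 (0.0209) and Pla2g2a (0.0398). Limma-voom with library quality weights called Defa17 (0.0371) and Pla2g2a (0.0409), with 4.80% called higher. In the authors' deposited table, made with DESeq2, Defa17, Defa21, Defa22, Mmp7 and Pla2g2a had adjusted p = 0.00705, 0.000742, 0.000638, 0.0306 and 0.0125, where 5.82% of the genes in that table were higher with an adjusted p under 0.05. Lyz1 and Ang4 had 0.0786 and 0.252 in the authors' deposited table.

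Single libraries carried a large part of the size of these differences. Without WT_Full replicate 3 the log2 fold change was 2.79 ± 0.83 for Defa21, 2.84 ± 0.64 for Defa22, 0.94 ± 0.57 for Lyz1, 0.85 ± 0.46 for Mmp7, 0.72 ± 0.84 for Ang4 and 2.03 ± 0.50 for Pla2g2a. Defa17, for which replicate 2 was the highest library, had 1.74 without that replicate. Without WT_Full replicate 4 edgeR called Defa17, Defa21, Defa22 and Pla2g2a (adjusted p = 0.0212, 0.0447, 0.0276 and 0.0260), in a fit that called 7.15% of all genes higher. No sign changed in any of these fits.

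Levels of cell type markers differed between the same groups, which bulk tissue cannot tie to cell numbers. The summed level of all 4 crypt stem cell genes of the marker list, none at 0 in any library, was 220.3 to 449.7 CPM in WT_Full and 189 to 231 CPM in WT_Con, with overlap. Olfm4 and Smoc2 (medians of 168 and 68.7 CPM over 25 libraries) outweigh Lgr5 and Ascl2 (2.97 and 3.31 CPM) in this sum. The summed level of all 3 T cell genes was 2.46 to 8.90 CPM in WT_Full and 21.4 to 54.3 CPM in WT_Con, and that of 3 neutrophil genes 0.971 to 15.4 and 0.104 to 0.794 CPM. The part of other cells in the levels of the Paneth cell genes was not tested here. With the Brunner gland genes as a covariate, the 7 log2 fold changes stayed positive, between 0.64 ± 1.70 for Ang4 and 2.92 ± 1.30 for Defa22, and none passed in a fit that called 0% of all genes higher.

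**Figure D2:**
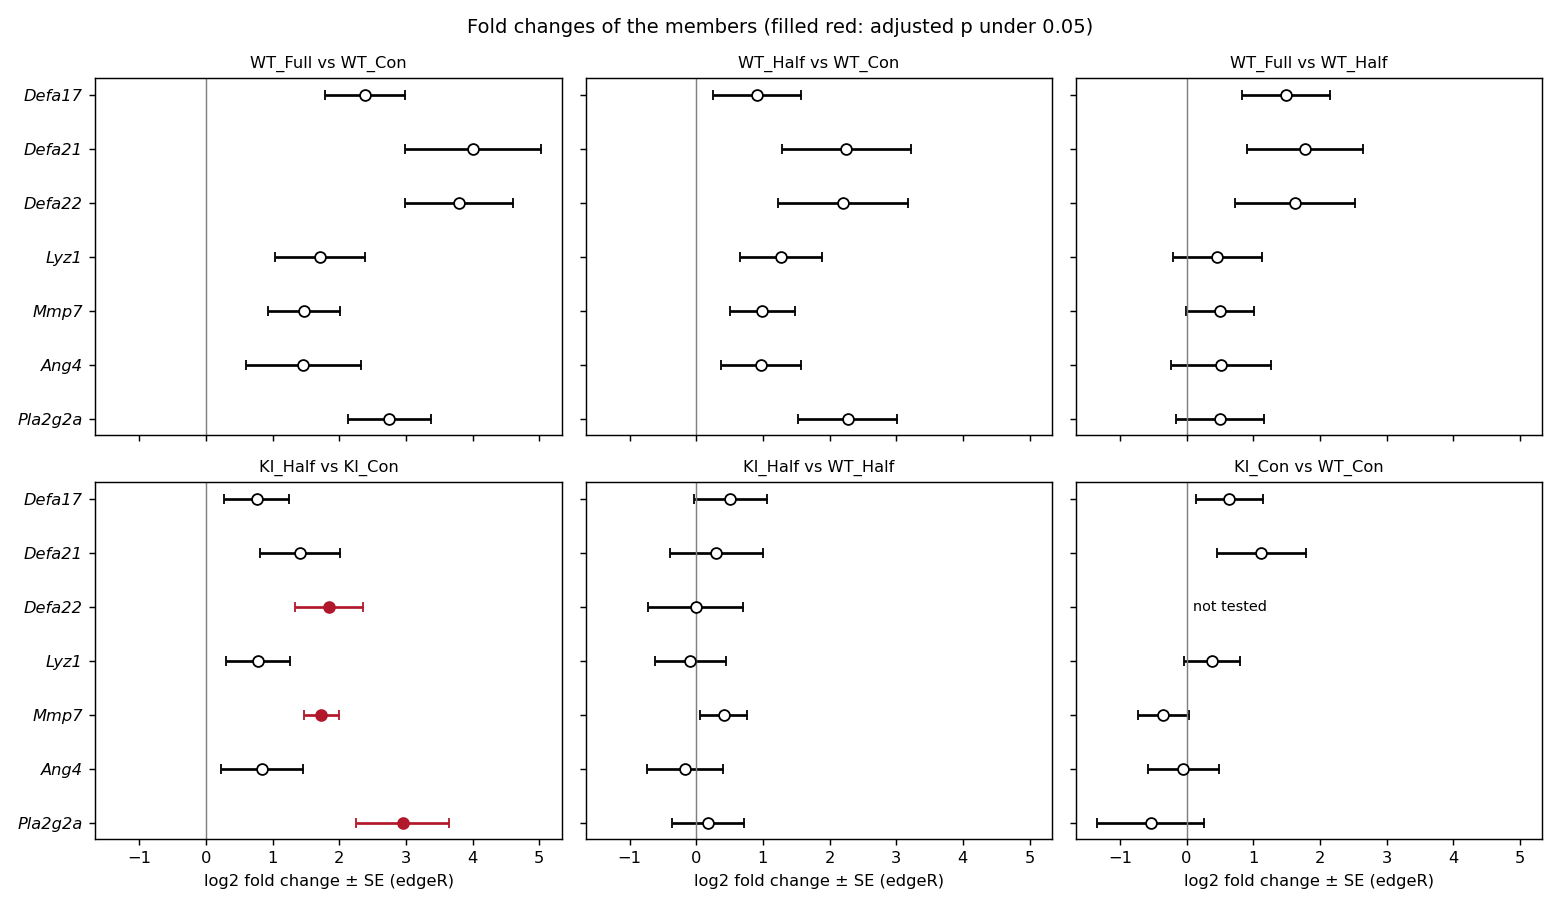
Log2 fold change of each gene (points) with SE (bars) from edgeR in 6 comparisons, filled red where the adjusted p was under 0.05. The 3 filled points are Defa22, Mmp7 and Pla2g2a in KI_Half vs KI_Con, and all 7 genes are right of 0 in each of the 3 comparisons of an ethanol group with its control group.

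WT_Half against WT_Con asked what the 2.5% regimen did in wild-type mice, and shares its WT_Con libraries with the comparison above. All 7 genes averaged higher in WT_Half, with a median log2 fold change of 1.27 beside -0.00 over all genes. Pla2g2a averaged 4.27 ± 3.57 CPM in WT_Half (n = 7) and 0.891 ± 0.631 CPM in WT_Con (n = 4), and Lyz1 342 ± 246 and 142 ± 81.0 CPM. Every gene overlapped between the groups, with 2 to 4 of the 7 WT_Half libraries above every WT_Con library, while 3.10% of all genes were higher with no overlap. None of the 7 passed edgeR's test, with 0.894% of all 16993 genes called higher and 1.47% in either direction.

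Pla2g2a came closest, with a log2 fold change of 2.27 ± 0.74 (edgeR, adjusted p = 0.116). It was the 1 gene of the 7 called by DESeq2 (adjusted p = 0.00989, with 4.13% of genes called higher), while limma-voom and the single edgeR fit called none of the 7, beside 3.50% and 2.06% of all genes called higher. Defa21 and Defa22 had 2.25 ± 0.97 and 2.20 ± 0.98 (adjusted p = 0.205 and 0.214), Lyz1 1.27 ± 0.61 (0.244), Mmp7 0.99 ± 0.49 (0.258), Ang4 0.97 ± 0.60 (0.360) and Defa17 0.91 ± 0.66 (0.441). At an unadjusted p under 0.05 Defa21, Defa22 and Pla2g2a were higher, against 10.4% of all genes. With the Brunner gland covariate the log2 fold changes were smaller, from 0.21 ± 0.76 for Defa17, 0.23 ± 0.81 for Ang4 and 0.30 ± 0.74 for Lyz1 to 1.46 ± 0.96 for Pla2g2a, with 0.71 ± 1.08 for Defa21, 0.90 ± 1.28 for Defa22 and 0.71 ± 0.64 for Mmp7. None of the 7 was called in that fit, beside 0.0353% of all genes called higher. With limma-voom they ran from 0.09 ± 0.61 for Defa17 to 1.25 ± 0.75 for Pla2g2a.

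Markers of other cells also differed between WT_Half and WT_Con. The 3 neutrophil genes S100a8, S100a9 and Retnlg, each at 0 in 2 or 3 of the 25 libraries, summed to 2.28 to 13.6 CPM in WT_Half and 0.104 to 0.794 CPM in WT_Con, with no overlap. The 3 T cell genes summed to 3.08 to 33.2 CPM (median 14.3) in WT_Half and 21.4 to 54.3 CPM (median 42.6) in WT_Con, and the 4 crypt stem cell genes to 145 to 607 and 189 to 231 CPM, both with overlap. The part of these cells in the levels of the Paneth cell genes was not tested.

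WT_Full against WT_Half compared the doses directly, with no control libraries shared between its groups. The levels averaged higher in WT_Full for all 7 genes, by a median log2 fold change of 0.51 beside 0.02 over all genes. The defensins had the largest values, at 1.77 ± 0.87 for Defa21, 1.62 ± 0.90 for Defa22 and 1.49 ± 0.66 for Defa17, and the other 4 lay between 0.46 ± 0.67 for Lyz1 and 0.51 ± 0.75 for Ang4. Every adjusted p of the 7 was 1.00 with edgeR, which called 0 of all 16967 genes. DESeq2 and limma-voom called none of the 7 either, beside 0.0294% and 0% of all genes called higher, and Defa17 was the 1 gene under an unadjusted p of 0.05, beside 2.56% of all genes that were higher. Most of these values rest on WT_Full replicate 3. Without it Defa21 had 0.56 and Defa22 0.66, while Lyz1, Mmp7, Ang4 and Pla2g2a had -0.32, -0.12, -0.24 and -0.22. Defa17 had 1.48 without it.

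KI_Half against KI_Con asked what the 2.5% regimen did in mice with the Aldh2 knock-in. Mmp7, Pla2g2a and Defa22 rose in KI_Half, and the means of the other 4 genes were also higher without passing the test. Mmp7 averaged 14.7 ± 4.01 CPM in KI_Half (n = 6) and 4.47 ± 1.38 CPM in KI_Con (n = 4), a log2 fold change of 1.73 ± 0.26 (edgeR, adjusted p = 0.000854). Pla2g2a averaged 4.79 ± 2.66 and 0.609 ± 0.704 CPM, a log2 fold change of 2.95 ± 0.70 (adjusted p = 0.00723). Defa22 averaged 1.07 ± 0.598 and 0.301 ± 0.174 CPM, a log2 fold change of 1.85 ± 0.51 (adjusted p = 0.0151).

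These 3 of 7 stand against a large background, since edgeR called 20.0% of all 16944 genes higher in this comparison and 37.9% in either direction. Mmp7 and Pla2g2a did not overlap between the groups, which held in that direction for 13.5% of all genes. Defa21 had a log2 fold change of 1.41 ± 0.60 (edgeR, adjusted p = 0.0852), Ang4 0.84 ± 0.62 (0.311), Lyz1 0.78 ± 0.48 (0.220) and Defa17 0.76 ± 0.49 (0.244). The median over the 7 was 1.41, beside 0.00 over all genes. DESeq2 also called Defa21 (adjusted p = 0.0471), with 21.6% of all genes called higher, and limma-voom called the same genes as edgeR, Mmp7, Pla2g2a and Defa22 (23.1%). In the single edgeR fit of all libraries Defa22 had an adjusted p of 0.113, while Mmp7 and Pla2g2a had 0.0104 and 0.00844, with 16.1% of all genes called higher.

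All 3 calls held in each of the 10 fits that left out 1 library, with adjusted p-values up to 0.00410 for Mmp7, 0.0227 for Pla2g2a and 0.0471 for Defa22. Pla2g2a depended most on KI_Con replicate 2, its highest KI_Con library, without which its log2 fold change was 4.04. With the Brunner gland covariate the values were 1.73 ± 0.27 for Mmp7, 2.93 ± 0.70 for Pla2g2a and 1.74 ± 0.52 for Defa22 (adjusted p = 0.00184, 0.0101 and 0.0249), with 18.3% of all genes called higher. By median, Mmp7 was also higher relative to lysozyme, at 2.91 to 11.6 Mmp7 CPM per 100 Lyz1 CPM (median 5.45) in KI_Half and 1.82 to 2.97 (median 2.63) in KI_Con. These ranges overlapped, and the ratio is given as a description. In WT mice its median was 3.85 in WT_Con, 4.04 in WT_Half and 3.12 in WT_Full.

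Markers of other cells moved in the same comparison. The summed level of all 4 crypt stem cell genes was 244 to 318 CPM in KI_Half and 120.3 to 216 CPM in KI_Con, and that of all 4 genes of dividing cells 174 to 254 and 87.8 to 128 CPM, with none of these genes at 0 in any library. The 3 neutrophil genes S100a8, S100a9 and Retnlg summed to 3.57 to 44.5 CPM in KI_Half and 0.197 to 0.558 CPM in KI_Con. Enteroendocrine genes (all 4) summed to 265 to 375 CPM in KI_Half and 210.2 to 259 CPM in KI_Con. Other lists were lower in KI_Half with no overlap. Goblet cell genes (7 of 8 listed) summed to 4833 to 6353 CPM in KI_Half and 6781 to 10730.1 CPM in KI_Con. Spink4, 1 of these 7, went the other way (log2 0.83 ± 0.14, edgeR, adjusted p = 0.00129). Its median of 100.4 CPM over 25 libraries weighs little in that sum beside Fcgbp (2848 CPM) and Zg16 (1375 CPM). Plasma cell genes (all 3) summed to 1222 to 5600.5 CPM in KI_Half and 6879.9 to 9189 CPM in KI_Con. T cell genes (all 3) summed to 4.78 to 27.8 and 40.0 to 48.5 CPM. The part of these cells in the rise of Mmp7, Pla2g2a and Defa22 was not tested.

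Genotype was compared at equal diet. In KI_Half against WT_Half the log2 fold changes ran from -0.17 ± 0.57 for Ang4 to 0.51 ± 0.55 for Defa17, with 4 of 7 above 0. Mmp7 averaged 14.7 ± 4.01 CPM in KI_Half and 11.1 ± 5.70 CPM in WT_Half, a log2 fold change of 0.41 ± 0.35 (edgeR, adjusted p = 0.604). edgeR called 0 of the 7 and 0 of all 16907 genes, DESeq2 and limma-voom called none of the 7, beside 1.01% and 5.23% of all genes in either direction, and none had an unadjusted p under 0.05. The authors' deposited table gave adjusted p-values of 0.65 to 0.994 for the 7 genes, with 0.902% of its genes higher under an adjusted p of 0.05.

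In KI_Con against WT_Con 6 of the 7 genes could be tested, since Defa22 was below the filter on low counts with 5 to 14 counts in KI_Con and 6 to 12 in WT_Con. Defa21 had the largest value, 1.12 ± 0.67 (edgeR, adjusted p = 0.569), and Pla2g2a the lowest, -0.54 ± 0.80 (0.821). Nothing was called among all 16813 genes by edgeR, none of the 6 had an unadjusted p under 0.05, and DESeq2 and limma-voom called none of those they tested, beside 0.0690% and 0.0119% of all genes.

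Whether the 2.5% regimen acted differently in the genotypes was tested as an interaction over 21 libraries. For Mmp7 the fold change in KI mice exceeded that in WT mice by 0.74 ± 0.58 on the log2 scale (edgeR, adjusted p = 0.573), and for Pla2g2a by 0.68 ± 1.01 (0.784). For Defa22 the difference was -0.36 ± 1.13 (0.910), and the remaining genes lay between -0.84 ± 1.16 for Defa21 and -0.13 ± 0.90 for Ang4. No gene of the 7, and 0 of all 17006 genes, passed with edgeR, none of the 7 did with DESeq2 or limma-voom, beside 0.225% and 6.69% of all genes, and none had an unadjusted p under 0.05. That Mmp7, Pla2g2a and Defa22 were called in KI and not in WT mice is therefore not shown to be a difference between genotypes.

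**Figure D3:**
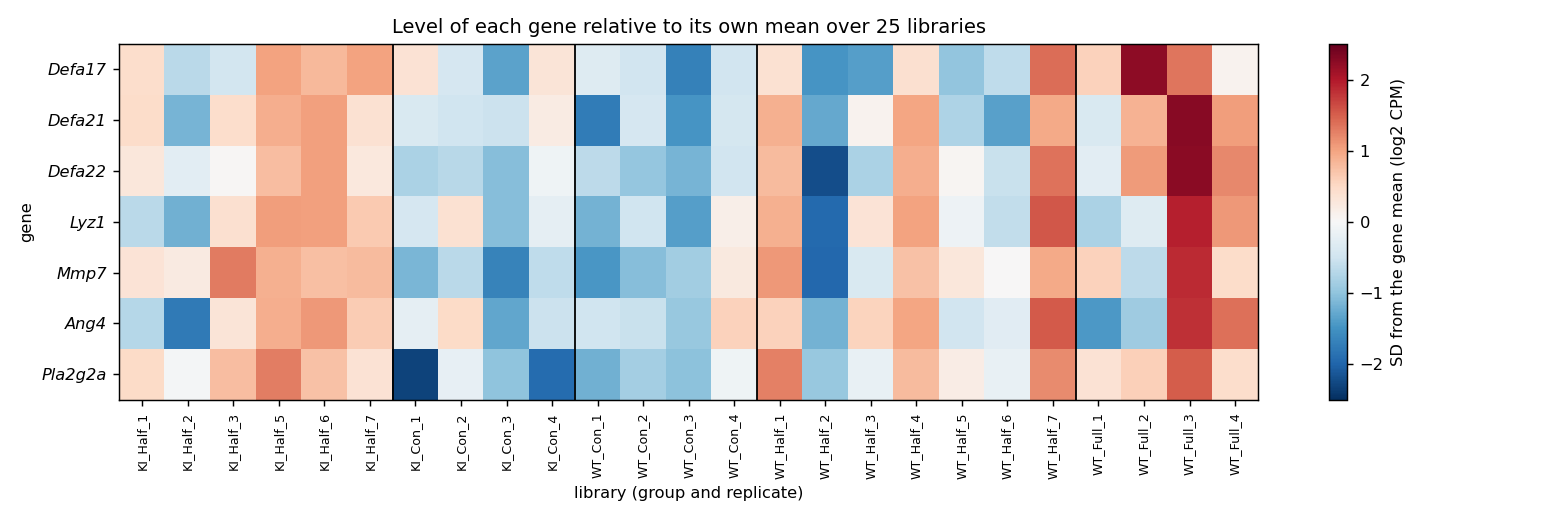
Level of each gene (rows) in each library (columns, by group and replicate) as the number of SD of log2 CPM above (red) or below (blue) that gene's mean over 25 libraries. WT_Full replicate 3 and WT_Half replicate 7 are red throughout and WT_Half replicate 2 is blue throughout, while Mmp7 and Pla2g2a differ from Lyz1 and Ang4 in KI_Half replicates 1 and 2.

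The genes varied widely between libraries of 1 group. All 7 were above their own mean in WT_Half replicates 1, 4 and 7, KI_Half replicates 5, 6 and 7 and WT_Full replicates 3 and 4, and all 7 were below it in WT_Half replicate 2, KI_Con replicate 3 and WT_Con replicates 1, 2 and 3. Within WT_Half the lowest and highest library differed by 15.7 times for Lyz1, 14.8 times for Pla2g2a, 11.2 times for Ang4, 11.3 times for Defa17 and 8.09 times for Mmp7. Defa21 differed by 23.4 times there, and Defa22 had a library at 0 counts. Within KI_Half that ratio was lowest for Mmp7, at 2.10, and reached 17.3 for Defa21 and 12.7 for Ang4, with the other 4 genes between 4.04 for Defa17 and 5.84 for Lyz1. The 4 crypt stem cell genes summed to 607, 292 and 369 CPM in WT_Half replicates 1, 4 and 7, and 145 in replicate 2. The 3 Brunner gland genes summed to 125, 57.3 and 72.5 CPM in the former and 11521 CPM in the latter. Their sum was also high in WT_Con replicates 1 and 3 and KI_Con replicate 3 (10608, 53685 and 10913 CPM). WT_Con replicate 2, where all 7 genes were low, had 35.1 CPM. WT_Con replicate 4, where 3 genes were above their mean, had 33249.9 CPM. The part of either list in this spread was not tested.

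Lyz1 and Ang4 followed each other most closely. Over 25 libraries their log2 CPM had a Pearson r of 0.933 and a Spearman rho of 0.931, with 0.949 after subtracting group means and 0.930 without the 2 libraries farthest from the median of Lyz1. Next came Defa21 with Defa22 (r = 0.866), the near-identical copies, Defa21 with Lyz1 (0.858) and Mmp7 with Pla2g2a (r = 0.841, rho = 0.889, and 0.853 without the 2 farthest libraries). Lyz1 with Mmp7 had r = 0.775 and Lyz1 with Pla2g2a 0.691, and Defa17 with Ang4 was lowest of the 21 pairs at 0.429. After subtracting group means the order changed, as Lyz1 had 0.800 with Mmp7 and 0.735 with Pla2g2a, while Mmp7 and Pla2g2a had 0.705 with each other. These are descriptions over libraries in which all genes share the same tissue piece, depth and scaling.

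In some libraries Lyz1 and Ang4 stood apart from Mmp7 or Pla2g2a. KI_Half replicates 1 and 2 had 133 and 87.4 CPM of Lyz1 and 5.39 and 2.10 CPM of Ang4, within or below the KI_Con range, but 11.0 and 10.1 CPM of Mmp7 and 3.71 and 1.95 CPM of Pla2g2a, above it. WT_Full replicate 1 had 121 CPM of Lyz1 and 2.81 CPM of Ang4, against 13.0 CPM of Mmp7 and 3.23 CPM of Pla2g2a, both above every WT_Con library. WT_Full replicate 2 had 174 CPM of Lyz1, 4.56 CPM of Ang4 and 5.56 CPM of Mmp7, all within the WT_Con range, and 4.25 CPM of Pla2g2a, above it.

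**Figure D4:**
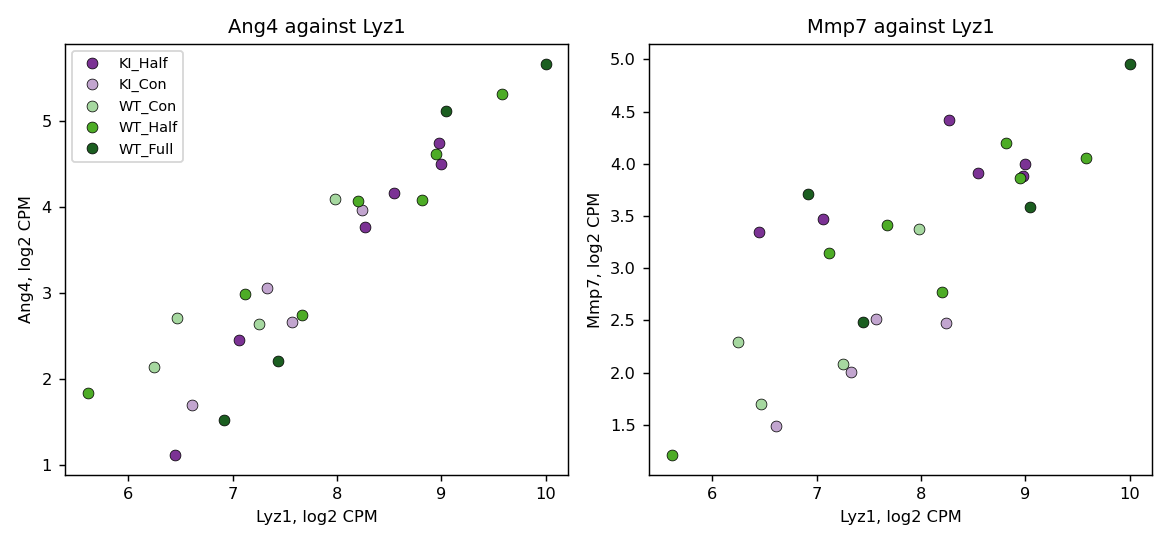
Log2 CPM of Ang4 (left) and Mmp7 (right) against log2 CPM of Lyz1 in 25 libraries, coloured by group. Ang4 lies close to a line with Lyz1 (r = 0.933). Mmp7 (r = 0.775) has KI_Half replicates 1 and 2 and WT_Full replicate 1 above other libraries of similar Lyz1 level. For KI_Half replicate 1 the gap is small, with a log2 CPM of 3.47 against 3.15 in WT_Half replicate 6.

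Among 14743 other genes with a mean log2 CPM of at least 0, those most like the mean standardised level of the 7 over 25 libraries were Defa39 (Pearson r = 0.963), Defa38 (0.955), Defa24 (0.950), Defa26 (0.944) and Itln1 (0.926, a row shared with Itlnb), the last being intelectin, a lectin of Paneth and goblet cells. Their Spearman rho was 0.932, 0.928, 0.948, 0.938 and 0.916.

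The 9 other alpha-defensin rows, Defa3, Defa23, Defa24, Defa26, Defa29, Defa30, Defa34, Defa38 and Defa39, had positive log2 fold changes in each of the 3 comparisons of an ethanol group with its control group. The test run on them, edgeR, called none of the 9. It called 0.00592% of all genes higher in WT_Full vs WT_Con, 0.894% in WT_Half vs WT_Con and 20.0% in KI_Half vs KI_Con. The median of the 9 rows was 2.25 in WT_Full vs WT_Con, 1.42 in WT_Half vs WT_Con and 0.89 in KI_Half vs KI_Con, the first 2 of which share WT_Con. Defa24 averaged 192 ± 138 CPM in WT_Full and 60.1 ± 30.1 CPM in WT_Con, a log2 fold change of 1.69 ± 0.53 (adjusted p = 0.190), and Defa30 104 ± 73.1 and 32.5 ± 16.6 CPM, also 1.69 (0.194). Defa29 averaged 6.06 ± 5.15 CPM in WT_Full and 0.245 ± 0.141 CPM in WT_Con, a log2 fold change of 4.64 ± 0.88 (0.127), and Defa3 3.86 ± 3.16 and 0.543 ± 0.244 CPM, 2.85 ± 0.78 (0.171). All but Defa34 were higher at an unadjusted p under 0.05 in WT_Full vs WT_Con, against 9.94% of all genes. Reads may have been split among these copies, so the rows are not independent of each other. The sum of all 12 rows does not depend on how reads were split among them. It would still miss reads that were discarded or given to copies without a row. This sum was 147 to 990.1 CPM in WT_Full and 58.7 to 211 CPM in WT_Con, and 104 to 561 CPM in KI_Half and 111 to 244 CPM in KI_Con.

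**Figure D5:**
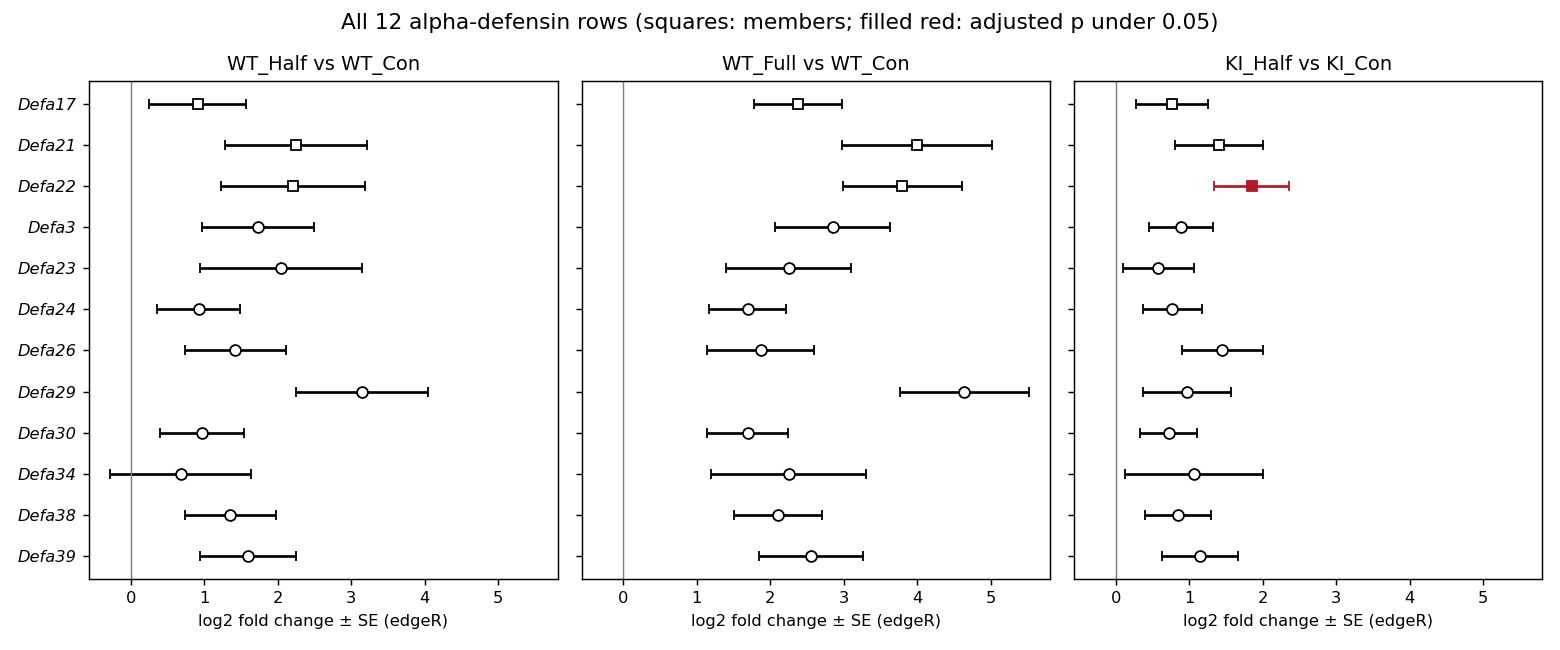
Log2 fold change with SE (edgeR) of all 12 alpha-defensin rows in WT_Half vs WT_Con, WT_Full vs WT_Con and KI_Half vs KI_Con. Squares are Defa17, Defa21 and Defa22, circles the other 9, and all 36 values are above 0, with Defa22 in KI_Half vs KI_Con the 1 filled red (adjusted p = 0.0151).

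Of 12 other genes listed with Paneth cell granule products, 9 had a row. Not all of them are granule products, as Kcnn4 is a channel, Nupr1 a regulator and Lyz2 the lysozyme of macrophages. In KI_Half vs KI_Con edgeR called 4 higher and 1 lower, beside 20.0% and 17.9% of all genes, and none was called in WT_Full vs WT_Con or WT_Half vs WT_Con. Reg3b and Reg3g, lectins that kill bacteria and are also made by enterocytes, averaged 2072 ± 1537 and 1084 ± 941 CPM in KI_Half, and 100.3 ± 53.4 and 74.1 ± 27.2 CPM in KI_Con (log2 4.38 ± 0.83 and 3.88 ± 0.74, adjusted p = 0.00250 and 0.00261). Spink4, a protease inhibitor that goblet cells also make, averaged 132 ± 16.0 CPM in KI_Half and 74.3 ± 14.0 CPM in KI_Con (0.83 ± 0.14, adjusted p = 0.00129). The other higher gene was the potassium channel Kcnn4 (1.14 ± 0.23, adjusted p = 0.00360) and the lower one Lyz2 (-1.31 ± 0.31, adjusted p = 0.00705), both named after their values were seen. In WT_Full vs WT_Con Spink4 averaged 141 ± 38.0 CPM in WT_Full and 58.7 ± 10.1 CPM in WT_Con (1.28 ± 0.22, adjusted p = 0.103), while the stress-induced regulator Nupr1 averaged 9.01 ± 2.67 CPM in WT_Full and 34.3 ± 27.3 CPM in WT_Con (-1.91 ± 0.65, adjusted p = 0.206). Nupr1 averaged 12.3 ± 4.39 CPM in KI_Con, also below WT_Con on the same control diet (-1.49 ± 0.64, edgeR, adjusted p = 0.502). Lyz2 is 1 of 4 macrophage genes whose summed level was at most 72.7 CPM in KI_Half and 93.4 to 186 CPM in KI_Con, so the lysozymes of the Paneth cell and the macrophage had log2 fold changes of opposite sign, that of Lyz1 without a call.

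Of 20 genes that specify or maintain Paneth cells, all tested, 1 was higher and 2 lower in KI_Half vs KI_Con, below the 37.9% of all genes called in either direction, 1 was lower in WT_Half vs WT_Con and none was called in WT_Full vs WT_Con. The unfolded protein response factor Xbp1 averaged 395 ± 146 CPM in KI_Half and 248 ± 15.4 CPM in KI_Con (log2 0.68 ± 0.24, edgeR, adjusted p = 0.0411). Rnf43, which removes Wnt receptors from the surface of crypt cells, averaged 55.9 ± 12.6 CPM in KI_Half and 84.0 ± 8.95 CPM in KI_Con (-0.58 ± 0.16, adjusted p = 0.0152), and 61.5 ± 11.1 CPM in WT_Half and 97.2 ± 1.08 CPM in WT_Con (-0.65 ± 0.13, adjusted p = 0.0368). The other lower gene was the secretory cell factor Bhlha15 (-0.60 ± 0.21, adjusted p = 0.0442), named after its value was seen, which pancreatic acinar cells also express; the 5 acinar genes summed to 4.63 to 8.44 CPM in KI_Half and 5.61 to 2638 CPM in KI_Con. The Wnt receptor Fzd5 had 0.08 ± 0.10 (0.555) and the secretory lineage factor Spdef 0.24 ± 0.49 (0.732) in KI_Half vs KI_Con. Spdef averaged 24.2 ± 13.8 CPM in WT_Full and 105 ± 94.4 CPM in WT_Con (-2.10 ± 0.73, adjusted p = 0.212). It averaged 26.7 ± 20.8 CPM in KI_Con, also below WT_Con on the same control diet (-1.98 ± 0.77, edgeR, adjusted p = 0.502). WT_Con held the library richest in Brunner gland genes, and the part of Brunner glands in these values was not tested.

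Of 18 relatives of Lyz1, Ang4, Mmp7 and Pla2g2a, 14 had a row, of which edgeR called 6 higher and 4 lower in KI_Half vs KI_Con (20.0% and 17.9% of all genes), 1 higher and 1 lower in WT_Half vs WT_Con (1.47% in either direction) and none in WT_Full vs WT_Con. The stromelysin Mmp3 averaged 17.9 ± 11.7 CPM in KI_Half and 0.408 ± 0.191 CPM in KI_Con (log2 5.44 ± 0.62, adjusted p = 0.000376), and 9.42 ± 4.32 CPM in WT_Half and 0.228 ± 0.152 CPM in WT_Con (5.31 ± 0.59, adjusted p = 0.00469). Pla2g5, another secreted phospholipase A2, averaged 12.1 ± 5.37 CPM in KI_Half and 2.30 ± 0.142 CPM in KI_Con (2.40 ± 0.33, adjusted p = 0.000585). The membrane-bound Mmp14 averaged 123 ± 22.7 and 71.1 ± 3.05 CPM in these groups (0.80 ± 0.13, adjusted p = 0.00127), and Mmp15 had 0.13 ± 0.25 (0.709). The lower gene in WT_Half vs WT_Con was Rnase4, a ribonuclease of the family of Ang4 (-0.69 ± 0.15, adjusted p = 0.0430), named after its value was seen, while Ang4 itself had 0.97 ± 0.60 there without a call.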

How the data were processed

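Polyadenylated RNA of mouse duodenum was sequenced in 25 libraries of 5 groups. Per the submitters' processing notes, FastQC, Trimmomatic, HISAT2, SAMtools, featureCounts and DESeq2 were used with GRCm38; no source used here names versions, the strand setting or how reads matching several genes were treated. The counts, as deposited, are whole reads per gene, not normalised. The authors' deposited tables also hold a log2 fold change and an adjusted p-value per gene from DESeq2, and a mean normalised signal over libraries, per the file headers. The 2 tables held the same counts, and 213 repeated lines were merged to leave 17007 gene identifiers.

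The main test was that of edgeR 4.0.16 in R 4.3.3: quasi-likelihood F test, TMM normalisation, filterByExpr, each comparison on its own 2 groups, two-sided, with Benjamini-Hochberg adjustment over all genes tested and a threshold of 0.05. SE is the absolute log2 fold change divided by the square root of F. CPM was scaled by TMM over all libraries, and log2 CPM used a prior count of 2. The floor of 3 counts covers counting error only, while SE and SD include the spread between libraries. Alternatives were DESeq2 1.42.0, limma-voom 3.58.1 with quality weights, 1 edgeR fit of all 25 libraries, RLE size factors, no filter, a replicate block, a Brunner gland covariate (Muc6, Tff2 and Gkn3 averaged as log2 CPM) and leaving out each library. The steps were tested on simulated counts. Depth was 24.6 to 44.8 M counts per library, so a gene at 0 counts may lie at up to 3 counts.

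The 7 genes and all lists were chosen with earlier results of these data known. All 7 were named in every comparison. Of each list the 2 genes with the highest mean CPM and the 2 with the smallest p in WT_Full vs WT_Con were named, and the 5 most alike genes by Pearson r; genes named outside this rule are marked. Positions and coding sequences came from GENCODE M21. Genes without a row in the deposited tables, Mptx2 and Muc2 among them, were not analysed here.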

Additional observations from a re-analysis of the deposited data

Results flagged for a closer look

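Of 35 sets of values (7 genes in 5 groups), 4 held a library farther from the rest of its group than Dixon's 95% limit. For independent sets of normally distributed values, chance gives about 1 in 20. CPM of genes that vary together need not meet this, so the 4 are not set against chance. WT_Half replicate 7 had 7.18 CPM of Defa17, and the next WT_Half library 3.15 CPM. KI_Con replicate 4 had 0.790 CPM of Defa21, and the next KI_Con library 0.385 CPM. WT_Con replicate 4 had 17.0 CPM of Ang4, and the next WT_Con library 6.46 CPM. WT_Full replicate 3 had 12.7 CPM of Pla2g2a, and the next WT_Full library 4.25 CPM.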

How the results depend on the processing

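In WT_Full vs WT_Con the count of the 7 genes called, 0 with edgeR on its own groups, was 4 with DESeq2, 2 with limma-voom, 4 with 1 edgeR fit of all 25 libraries, and 0 to 4 when a library was left out. In WT_Half vs WT_Con it was 1 with DESeq2 and otherwise 0. In KI_Half vs KI_Con it was 3 with edgeR, limma-voom, RLE size factors, no filter and the Brunner gland covariate, 4 with DESeq2, 2 with 1 edgeR fit of all 25 libraries, 3 to 4 when a library was left out, and 1 (Mmp7) with the replicate block, where Defa22 and Pla2g2a had adjusted p = 0.0603 and 0.0602, with 18.6% of all genes called higher. The labels do not say whether replicate numbers pair the libraries. Correlations between the deviations of libraries with the same number did not settle it. They were 0.0102, 0.0551 and 0.200 in KI_Half vs KI_Con, and each other comparison held negative values. The block kept only numbers found in both groups. It changed no other call.

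RLE size factors and no filter reversed no sign. With the replicate block, KI_Half vs KI_Con became -0.14 for Lyz1 and -0.47 for Ang4, KI_Half vs WT_Half 0.93 for Defa22 and 0.26 for Lyz1, and the interaction 0.33 for Defa17 and 0.24 for Defa22. With limma-voom, KI_Half vs WT_Half became 1.01 for Defa22, KI_Con vs WT_Con -0.02 for Lyz1, and the interaction 0.56 for Defa17, 1.06 for Defa22 and 0.05 for Ang4. With the Brunner gland covariate, WT_Full vs WT_Half became -0.14 for Ang4, KI_Half vs WT_Half 0.29 for Defa22, 0.17 for Lyz1 and 0.04 for Ang4, and the interaction 0.36 for Defa17, 0.41 for Defa22, 0.66 for Ang4 and 0.24 for Lyz1. None of these was called before or after, and the cause was not tested. Leaving out 1 library, WT_Full vs WT_Half ran from -0.32 to 0.79 for Lyz1, -0.12 to 0.74 for Mmp7, -0.24 to 0.90 for Ang4 and -0.22 to 0.79 for Pla2g2a. KI_Half vs WT_Half ran from -0.29 to 0.49 for Defa22, -0.28 to 0.26 for Lyz1, -0.42 to 0.23 for Ang4 and -0.15 to 0.48 for Pla2g2a. KI_Con vs WT_Con ran from -0.54 to 0.13 for Mmp7, -0.53 to 0.54 for Ang4 and -1.63 to 0.08 for Pla2g2a, and the interaction from -0.44 to 0.41 for Defa17, -0.64 to 0.13 for Defa22 and -0.72 to 0.36 for Ang4. Depth limits Defa21 and Defa22 most, with 20 or fewer counts in every control library.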
